A study of Mus musculus with 12 samples.

Results

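Transcript levels of 10 genes of the Notch pathway were followed in follicular B cells from mouse spleen. They form a named list: the receptors Notch1 and Notch2, the protease gene Adam10, the nuclear partners Rbpj and Maml1, and the target genes Hes1, Hes5, Hey1, Nrarp and Dtx1. All 10 were on the array, among 18193 genes named by at least 1 probe set. A probe set is a group of short DNA probes that together report 1 transcript. Where a gene had several, the brightest on average across the 12 arrays stands for it.

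The cells were sorted as B220+, CD23 high and CD21 low, to a purity over 98% per the labels, from C57Bl/6 mice aged 6 weeks. The mice were wild type (WT) or IkL/L, the genotype that the series' title calls Ikaros-deficient. Ikaros, encoded by Ikzf1, is a zinc finger transcription factor of lymphocytes. Cells of both genotypes were cultured for 3 h without stimulus, for 3 h with 10 µg/ml anti-IgM F(ab')2, or for 12 h with the same antibody. Anti-IgM crosslinks the B cell receptor. These 6 groups held 2 arrays each, from 2 independent experiments. The labels do not say how many mice gave each sample, so the p-values measure only the spread between these samples. The only unstimulated culture lasted 3 h, so at 12 h the stimulus and the time in culture cannot be told apart. The IkL/L alleles were carried by the mice from birth, and these arrays do not tell an effect in the cultured cell from one on its earlier development.

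Notch receptors are activated by ligands on neighbouring cells. ADAM10 then cuts the receptor outside the membrane and gamma-secretase cuts it within, which frees the intracellular domain. This domain joins the DNA-binding protein RBPJ and a Mastermind-like coactivator such as MAML1 at genes that RBPJ otherwise helps to repress. In the spleen, NOTCH2 signalling directs B cells to the marginal zone fate, which needs Adam10, Rbpj and Maml1, while follicular B cells are the alternative fate.

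Values are log2 signals from robust multi-array averaging (RMA), so a difference of 1 is a 2-fold change. A level counted as above background when it lay over a floor of 4.21, which is 1 above the highest array median. On this scale 7 of the 10 genes were over the floor on all 12 arrays, and Hes1 on 4 of them. Hey1 and Nrarp were over it on none. Levels of different genes come from different probes and are not compared with each other. Differences were tested with limma and p-values were adjusted over all 18193 genes; "rose", "fell" and "called" mean an adjusted p under 0.05. The fits of the 3 h and the 12 h response use the same unstimulated arrays, so their values are given side by side and not as independent results.

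After 3 h with anti-IgM, both receptor transcripts had fallen and Rbpj had risen, in WT and in IkL/L cells alike by the test within each genotype. Adam10 rose and Hes5 rose early in WT cells, and Hes1 and Maml1 fell in IkL/L cells after 12 h. Averaged over the 3 conditions, Rbpj was the only one of the 10 genes called between the genotypes, and it was higher in IkL/L cells. Of the 120 pairs of a gene and a comparison, 19 were called, over 7 genes and 7 comparisons. Dtx1, Hey1 and Nrarp were called in none.

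The proximal promoters of the genes on which these results turn are shown here, to set the gene for the DNA-binding partner beside both receptor genes and 1 target. Each runs from 250 bases before to 50 bases after the annotated start in RefSeq (build GRCm38.p6), 5′ to 3′ on the gene's strand. Capitals mark TGGGAA, the core that RBPJ binds, on either strand, so that its reverse complement TTCCCA is marked too. The last letters of the motif, GGGAA, are also the core that Ikaros binds; that shorter core was not searched by itself. The Rbpj window lies on the plus strand at chr5:53590096-53590395, the Hes5 window on the plus strand at chr4:154960673-154960972, the Notch1 window on the minus strand at chr2:26503773-26504072 and the Notch2 window on the plus strand at chr3:98013288-98013587.
Rbpj: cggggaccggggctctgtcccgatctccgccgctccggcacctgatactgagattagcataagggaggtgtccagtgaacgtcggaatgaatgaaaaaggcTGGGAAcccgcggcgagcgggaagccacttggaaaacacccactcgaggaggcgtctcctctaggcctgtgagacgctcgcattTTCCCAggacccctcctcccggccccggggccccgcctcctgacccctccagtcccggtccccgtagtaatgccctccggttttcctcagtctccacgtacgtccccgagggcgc
Hes5: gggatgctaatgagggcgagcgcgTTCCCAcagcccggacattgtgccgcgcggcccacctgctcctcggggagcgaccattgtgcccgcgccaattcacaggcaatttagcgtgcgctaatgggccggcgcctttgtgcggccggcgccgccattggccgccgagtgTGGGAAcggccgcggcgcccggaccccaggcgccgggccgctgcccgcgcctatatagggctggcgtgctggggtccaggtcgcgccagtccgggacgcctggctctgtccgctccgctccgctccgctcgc
Notch1: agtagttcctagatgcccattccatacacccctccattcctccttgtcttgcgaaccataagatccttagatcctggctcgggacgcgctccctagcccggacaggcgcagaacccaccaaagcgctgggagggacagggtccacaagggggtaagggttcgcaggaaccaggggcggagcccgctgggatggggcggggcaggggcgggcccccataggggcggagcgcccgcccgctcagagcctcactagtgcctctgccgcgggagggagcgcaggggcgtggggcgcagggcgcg
Notch2: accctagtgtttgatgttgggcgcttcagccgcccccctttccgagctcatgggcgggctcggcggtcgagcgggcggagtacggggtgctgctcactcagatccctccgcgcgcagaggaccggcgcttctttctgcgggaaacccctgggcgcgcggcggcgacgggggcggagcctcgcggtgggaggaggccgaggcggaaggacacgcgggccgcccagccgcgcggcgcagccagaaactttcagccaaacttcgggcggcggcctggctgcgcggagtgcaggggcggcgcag

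The Rbpj window held the letters on its own strand, with the first base at position -149 from the start, and on the opposite strand at position -65. Rbpj has a second annotated start downstream, whose window (chr5:53590236-53590535) held the second of these matches again. The Hes5 window held them on the opposite strand at position -226 and on its own strand at -82. The windows of Notch1, Notch2, Dtx1, Nrarp, Maml1 and Adam10 did not hold them. In all, 3 of 9 windows of 8 of the genes had a match, against 25.6% of 32851 windows of the same length. No window was at hand for Hes1 and Hey1. A match describes the letters and does not show binding.

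**Figure D1:**
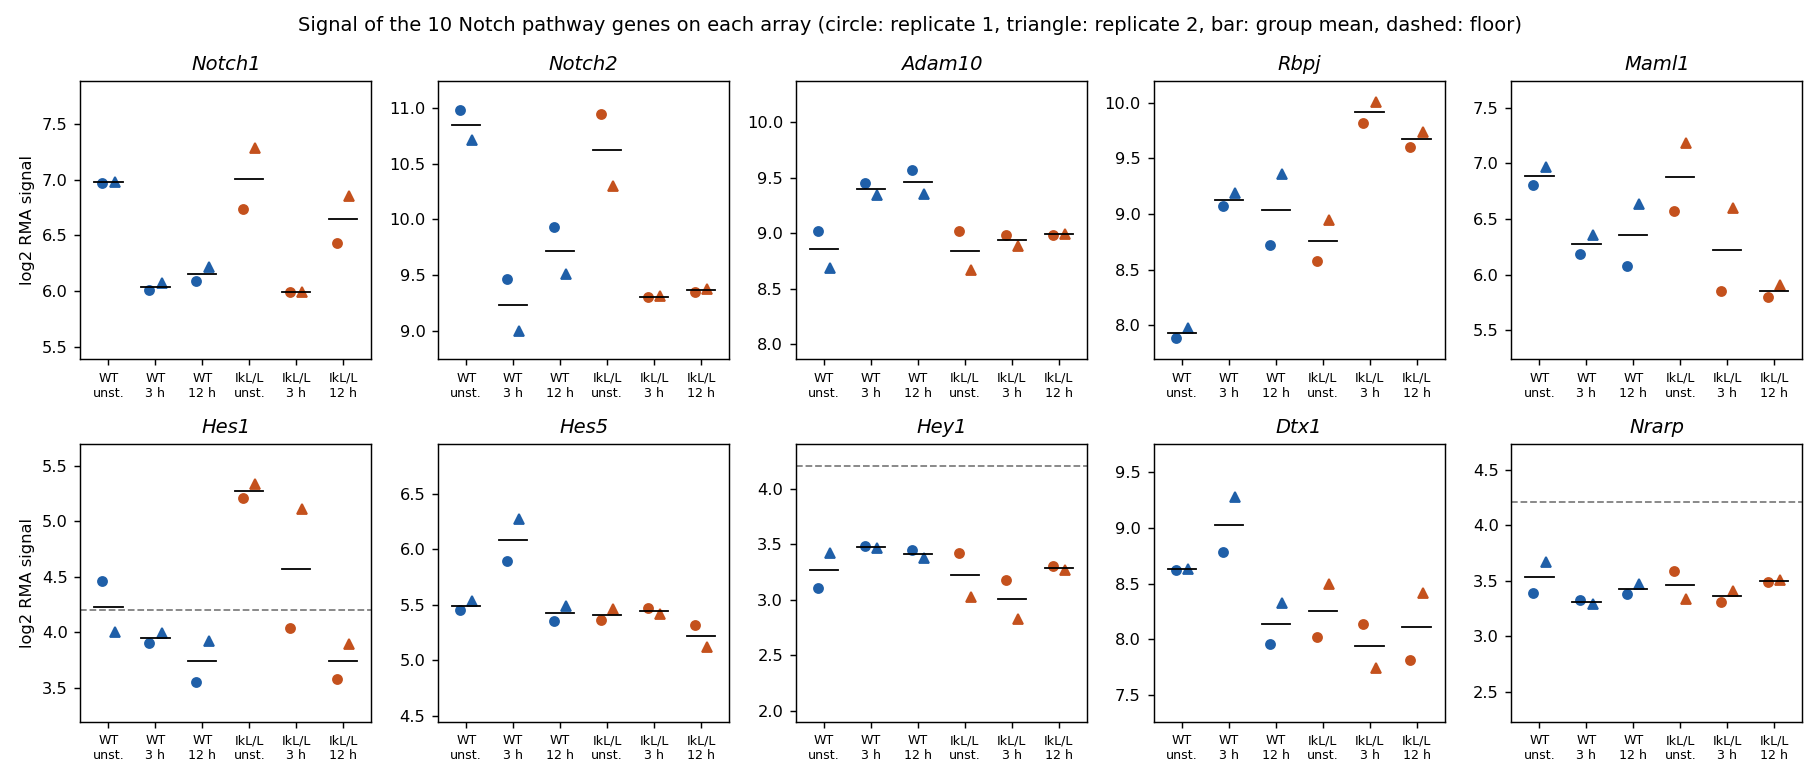
Log2 RMA signal of each of the 10 genes in the 6 groups, with 1 point per array (circle, replicate 1; triangle, replicate 2), a bar at the mean of the 2 arrays and a dashed line at the floor. Both receptors have their highest means in the unstimulated groups, Rbpj is lowest in unstimulated WT cells, and Hey1 and Nrarp stay below the floor of 4.21.

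The question of the first comparison is how stimulation changed these transcripts in WT cells. After 3 h, 5 of the 10 genes were called, 3 higher and 2 lower, against 19.4% of all 18193 genes (9.15% higher and 10.2% lower). The background was higher among genes whose mean lay over the floor, at 41.0% of 7805, where 8 of the 10 genes belong. The median difference was -0.0039 over the 10 genes and 0.02 over all genes. After 12 h, 4 were called, 2 higher and 2 lower, against 18.8% of all genes (10.1% higher and 8.66% lower) and 39.6% of those over the floor. From 3 h to 12 h, 1 was called, lower, against 10.8% (6.5% higher and 4.33% lower).

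In IkL/L cells 3 of the 10 genes were called after 3 h, 1 higher and 2 lower, against 20.4% of all genes (9.82% higher and 10.6% lower) and 42.3% of those over the floor. After 12 h, 4 were called, 1 higher and 3 lower, against 17.6% (9.72% higher and 7.87% lower) and 36.5% over the floor. From 3 h to 12 h, 1 was called, higher, against 15.5% (9.12% higher and 6.42% lower). The median difference over the 10 genes was -0.27 at 3 h and -0.17 at 12 h, and over all genes -0.03 and 0.02.

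Notch2 encodes the main Notch receptor of mature B cells. Its signal was 10.99 and 10.72 in unstimulated WT cells, 9.46 and 9.001 after 3 h, and 9.93 and 9.51 after 12 h. The IkL/L arrays read 10.95 and 10.30 without stimulus, 9.30 and 9.31 after 3 h, and 9.35 and 9.38 after 12 h. All 8 stimulated arrays lay below all 4 unstimulated ones. The fall after 3 h was 3.08-fold in WT cells (log2 difference -1.62, SE 0.23, limma adjusted p = 0.000716) and 2.49-fold in IkL/L cells (-1.32, adjusted p = 0.00245). These were samples of many cells, so fewer cells with the transcript and less of it per cell cannot be told apart here or below. After 12 h the fall was 2.19-fold in WT (adjusted p = 0.00634) and 2.40-fold in IkL/L cells (adjusted p = 0.00399).

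In WT cells both 12 h arrays of Notch2 lay above both 3 h arrays, but the difference of 0.49 did not pass the test (adjusted p = 0.269). The IkL/L means at 12 h and 3 h differed by 0.06 (95% interval -0.46 to 0.58). The genotypes did not differ by the test in any condition; unstimulated IkL/L minus WT was -0.23 (interval -0.75 to 0.29). The WT 3 h fall was called in every fit tried, and was 0.80 with the mean of both Notch2 probe sets, where the IkL/L falls were 0.77 at 3 h and 0.73 at 12 h. The WT 12 h call was lost without WT unstimulated replicate 1 (adjusted p = 0.0562), WT 12 h replicate 2 (0.054) or all WT arrays of replicate 1 (0.0519) or 2 (0.0827), and with that mean (a fall of 0.37; adjusted p = 0.273), of which the second is over the floor on no array. Both IkL/L calls were lost without the IkL/L arrays of replicate 1, with adjusted p = 0.0994 at 3 h and 0.125 at 12 h.

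Notch1 encodes the receptor best known for directing precursors to the T cell fate, and it is also present on B cells. In WT cells its signal was 6.97 and 6.98 without stimulus, 6.01 and 6.07 after 3 h, and 6.09 and 6.22 after 12 h. With IkL/L alleles it was 6.74 and 7.28 without stimulus, 5.99 and 6.00 after 3 h, and 6.44 and 6.85 after 12 h. The 3 h arrays lay below the unstimulated arrays in both genotypes. The early fall was 1.92-fold in WT cells (-0.94, SE 0.18, limma adjusted p = 0.00459) and 2.02-fold in IkL/L cells (-1.02, adjusted p = 0.00283).

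At 12 h Notch1 was still low in WT cells, 1.77-fold below unstimulated (adjusted p = 0.0100). The IkL/L arrays at 12 h overlapped the unstimulated ones, with a difference of -0.37 (adjusted p = 0.25), and stood 1.57-fold above the 3 h arrays (0.65, adjusted p = 0.0386). Both IkL/L arrays at 12 h exceeded both WT arrays, by 0.49 on average, but neither this (adjusted p = 0.395) nor the difference between the genotypes in the 12 h response (0.46, interval -0.12 to 1.04, adjusted p = 0.894) passed the test. The IkL/L rise from 3 h to 12 h was called in 9 of 22 other fits; it was 0.53 with each array centred on its median (adjusted p = 0.107) and 0.44 without IkL/L 12 h replicate 2 (0.262). With the mean of its probe sets the 3 h falls were 0.56 in WT and 0.61 in IkL/L cells and were still called. The WT 3 h call was lost without all WT arrays of replicate 1 (0.135) or 2 (0.112), and the WT 12 h call without those (0.206 and 0.157), WT unstimulated replicate 1 (0.0537) or 2 (0.0601) or WT 12 h replicate 1 (0.0601).

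Adam10 encodes the metalloprotease that makes the first cut of the activated receptor, and that also sheds CD23 from B cells. Its signal was 9.02 and 8.69 in unstimulated WT cells, 9.45 and 9.34 after 3 h, and 9.56 and 9.35 after 12 h. IkL/L cells gave 9.02 and 8.67, 8.98 and 8.89, and 8.98 and 8.99 in the same order. In WT cells the stimulated arrays lay above the unstimulated ones, while in IkL/L cells they overlapped. The rise in WT was 1.46-fold at 3 h (0.54, SE 0.15, limma adjusted p = 0.0322) and 1.52-fold at 12 h (0.61, adjusted p = 0.0197).

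The difference of Adam10 in IkL/L cells was 0.09 at 3 h (interval -0.25 to 0.44) and 0.14 at 12 h (-0.20 to 0.49). That the responses differed between genotypes was not shown: the difference was -0.45 at 3 h (interval -0.94 to 0.04, adjusted p = 0.908) and -0.46 at 12 h (adjusted p = 0.841). The stimulated IkL/L arrays all lay below the stimulated WT arrays of the same time, by 0.46 at 3 h and 0.47 at 12 h, without passing the test (adjusted p = 0.223 and 0.310). A second probe set, at a mean of 4.27 and over the floor on 7 arrays, differed by 1.09 at 3 h and 0.97 at 12 h in IkL/L cells and by 0.66 and 0.04 in WT cells, none of which passed. Both WT calls were lost without WT unstimulated replicate 2 (0.38 and 0.44; adjusted p = 0.262 and 0.173) and with the mean of its 4 probe sets (0.35 and 0.21). The 3 h call was also lost without WT 3 h replicate 1 (0.167) or 2 (0.0792), or all arrays of 1 replicate number of either genotype (0.0566 to 0.322). The 12 h call was lost without WT 12 h replicate 1 (0.120) or all WT arrays of replicate 1 (0.112) or 2 (0.202).

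Rbpj encodes the DNA-binding protein through which all Notch receptors act on genes, and it changed in both respects, with stimulus and with genotype. Its signal was 7.88 and 7.98 in unstimulated WT cells, 9.07 and 9.19 after 3 h, and 8.72 and 9.36 after 12 h. In IkL/L cells it was 8.58 and 8.94 without stimulus, 9.82 and 10.01 after 3 h, and 9.60 and 9.74 after 12 h. Unstimulated WT cells were the lowest group and stimulated IkL/L cells the highest, with no overlap. Unstimulated IkL/L cells overlapped WT cells stimulated for 12 h.

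The rise of Rbpj at 3 h was 2.30-fold in WT (1.20, SE 0.20, limma adjusted p = 0.00182) and 2.23-fold in IkL/L cells (1.16, adjusted p = 0.00226). At 12 h it was 2.16-fold (adjusted p = 0.00315) and 1.88-fold (adjusted p = 0.0104). The responses of the genotypes differed by -0.05 at 3 h (interval -0.68 to 0.59) and by -0.20 at 12 h (-0.83 to 0.43), which did not pass the test. The WT 3 h rise was called in every fit tried. Without the IkL/L arrays of replicate 1 the IkL/L 3 h call was lost (adjusted p = 0.0728), and without the WT arrays of replicate 2 the WT 12 h call (0.0791). The IkL/L 12 h call was lost without IkL/L unstimulated replicate 1 (0.0783), IkL/L 12 h replicate 2 (0.0766) or all IkL/L arrays of replicate 1 (0.171) or 2 (0.0998), and with arrays scaled to housekeeping genes (0.62; adjusted p = 0.103).

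Between the genotypes, 1 of the 10 genes was called on average over the conditions. This compares with 6.08% of all genes (3.41% higher and 2.67% lower) and 11.5% of those over the floor. The share for 1 gene in 10 is thus near these backgrounds. This was Rbpj, 1.68-fold higher in IkL/L cells (0.75, SE 0.12, limma adjusted p = 0.00517). The average takes all arrays of a genotype as independent, although same-numbered arrays within a genotype were alike by the data. The SE and p-value of each average between genotypes, here and below, may therefore be too small. In each condition both IkL/L arrays of Rbpj lay above both WT arrays, by 0.83 without stimulus, 0.79 at 3 h and 0.63 at 12 h. None of these passed the test alone (adjusted p = 0.101, 0.0999 and 0.295). Of the 10 genes 0 were called in any single condition, where the background was 1.13% without stimulus, 1.7% at 3 h and 0.616% at 12 h. At an unadjusted p under 0.05 in limma, 2, 5 and 3 of them passed in these conditions. Rbpj did pass without stimulus and at 3 h with the mean of its probe sets (limma adjusted p = 0.0482 and 0.0439). It also passed with a replicate block shared by the genotypes (0.0199 and 0.0191), across which the labels do not say that numbers pair arrays. The average call was lost without the IkL/L arrays of replicate 2 (0.63; adjusted p = 0.126).

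The array carries 2 further Rbpj probe sets over the floor on average. Like the first, both were higher with the stimulus and in IkL/L cells. The second read 6.00 and 5.88 in unstimulated WT cells and 6.91 and 7.02 in unstimulated IkL/L cells, and reached 8.50 and 8.86 in IkL/L cells at 12 h. On it the WT rise was 1.54 at 3 h and 1.53 at 12 h, and the IkL/L rise 1.24 and 1.72. From 3 h to 12 h in IkL/L cells the first probe set differed by -0.25 and the second by 0.48, neither of which passed the test. The genotype difference on the second was 1.02 without stimulus (limma adjusted p over all probe sets = 0.0219), 0.72 at 3 h (0.073) and 1.21 at 12 h (0.0171). The third read 3.90 and 3.92 in unstimulated WT cells, under the floor, and 4.36 and 4.68 in unstimulated IkL/L cells. Its genotype difference on average was 0.81 (adjusted p = 0.00487), beside 0.99 on the second.

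**Figure D2:**
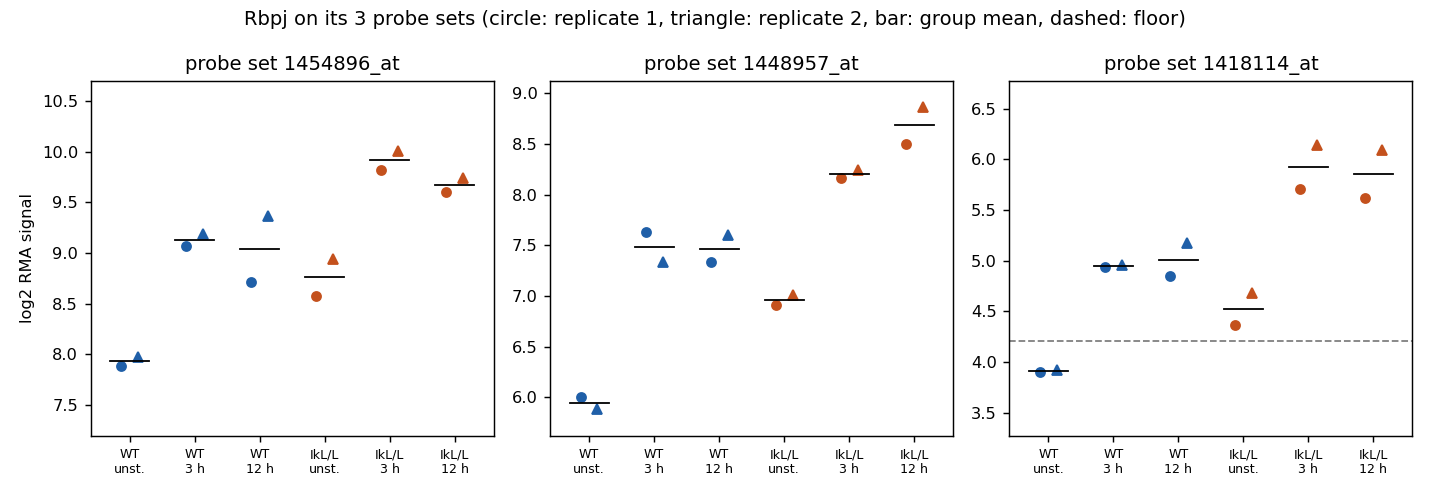
Log2 RMA signal of the 3 Rbpj probe sets in the 6 groups, with 1 point per array (circle, replicate 1; triangle, replicate 2), a bar at the group mean and a dashed line at the floor where it is in range. On each probe set the unstimulated WT arrays are lowest and the stimulated IkL/L arrays highest.

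Maml1 encodes the coactivator that binds the complex of RBPJ and the receptor domain. Its signal was 6.80 and 6.97 in unstimulated WT cells, 6.19 and 6.36 after 3 h, and 6.08 and 6.64 after 12 h. IkL/L cells gave 6.57 and 7.18, 5.85 and 6.60, and 5.80 and 5.91 in the same order. Replicate 2 was higher than replicate 1 in all 6 groups, as it was for Notch1 and Rbpj. The fall in IkL/L cells at 12 h was 2.03-fold (-1.02, SE 0.27, limma adjusted p = 0.0266). The other differences from unstimulated were -0.61 in WT at 3 h, -0.53 in WT at 12 h and -0.65 in IkL/L at 3 h, with adjusted p = 0.181, 0.254 and 0.141. With the replicate number as a block within each genotype these 3 passed (adjusted p = 0.021, 0.0424 and 0.0146).

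Against this, the second Maml1 probe set, at a mean of 4.75, did not show the falls: it differed by 0.02 in WT at 3 h and by -0.0001 in IkL/L at 12 h. The called probe set has a suffix that marks probes shared among transcripts. The IkL/L call was lost without IkL/L unstimulated replicate 2 (-0.72; adjusted p = 0.182), IkL/L 12 h replicate 1 (0.115) or 2 (0.0951), all IkL/L arrays of replicate 2 (0.180), or all WT arrays of replicate 1 or 2 (0.0559 each), and with the mean of the probe sets (-0.35; 0.124). The myeloid transcripts S100a8, S100a9 and Lyz2, over the floor on 9, 7 and 2 arrays, were also higher in replicate 2 in all 6 groups. Csf1r, Itgam and Cd14 were over the floor on 0. The 6 myeloid markers summed to 54.7 to 271 in linear signal in WT and 75.8 to 242 in IkL/L arrays. Their part in the result was not tested.

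Hes1 encodes a repressor that is a common direct target of Notch signalling. It lay near background: 4.46 and 4.001 in unstimulated WT cells, 3.90 and 3.99 after 3 h, and 3.56 and 3.92 after 12 h. IkL/L arrays read 5.21 and 5.34 without stimulus, 4.04 and 5.11 after 3 h, and 3.59 and 3.90 after 12 h. Over the floor were both unstimulated IkL/L arrays, 1 IkL/L array at 3 h and 1 unstimulated WT array. The fall in IkL/L cells by 12 h was at least 2.09-fold, taking the 12 h level at the floor (measured difference -1.53, SE 0.30, limma adjusted p = 0.00552). It was called in every fit tried.

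Without stimulus the IkL/L level of Hes1 was at least 1.92-fold above WT, with a measured difference of 1.04 that did not pass the test (adjusted p = 0.177). The 12 h difference of IkL/L cells minus that of WT cells was -1.04 (interval -1.99 to -0.10), which did not pass after adjustment (adjusted p = 0.771).

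Hes5 encodes a related repressor. In WT cells its signal was 5.45 and 5.53 without stimulus, 5.90 and 6.27 after 3 h, and 5.36 and 5.49 after 12 h. Its IkL/L signal ran from 5.12 to 5.47 over all 6 arrays. The WT 3 h arrays stood above the other 10. The rise in WT at 3 h was 1.51-fold (0.59, SE 0.14, limma adjusted p = 0.0128), and the fall from 3 h to 12 h 1.58-fold (adjusted p = 0.0135). The 3 h difference in IkL/L cells was 0.03 (interval -0.28 to 0.34).

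The IkL/L and WT levels of Hes5 at 3 h differed by -0.64, just short of the threshold (adjusted p = 0.0549), and the difference between the 3 h responses was -0.56 (interval -1.003 to -0.12, adjusted p = 0.764). The probe set that gives these values has a suffix that marks probes that may bind other transcripts. The other Hes5 probe set, which read 3.90 to 4.57, differed by 0.07 in WT at 3 h. Both calls were lost with the mean of both probe sets (0.33 and -0.30) and without WT 3 h replicate 2 (0.41 and -0.48; adjusted p = 0.105 and 0.0922). The first was lost too without WT unstimulated replicate 1 (0.0848) or 2 (0.0516) or all WT arrays of replicate 2 (0.213). The second was lost without WT 12 h replicate 1 (0.072) or all WT arrays of replicate 1 (0.0785) or 2 (0.205).

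Dtx1 encodes Deltex, a ubiquitin ligase of the pathway and a target of NOTCH2 in marginal zone B cells. Its signal was 8.62 and 8.63 in unstimulated WT cells, 8.78 and 9.28 after 3 h, and 7.96 and 8.32 after 12 h. IkL/L cells gave 8.02 and 8.50, 8.14 and 7.74, and 7.81 and 8.41 in the same order. On this brightest probe set WT cells at 3 h were the highest group and IkL/L cells at 3 h had the lowest mean. That genotype difference was -1.09, or 2.13-fold, with no overlap, and did not pass the test (SE 0.26, limma adjusted p = 0.0724). The WT difference from 3 h to 12 h of -0.89 also fell short (adjusted p = 0.0548). With the replicate block within each genotype the latter passed (0.0192). A second Dtx1 probe set, at a mean of 4.43 and over the floor on 6 arrays, gave another order. On it WT cells differed from unstimulated by 1.02 at 3 h and 1.14 at 12 h. Neither passed the test (limma adjusted p over all probe sets = 0.183 and 0.131). Its highest array was WT 12 h replicate 2 (6.04), and the IkL/L 3 h arrays (4.53 and 4.24) lay above the other IkL/L arrays.

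Hey1, a repressor of the family of Hes1, read 2.82 to 3.48 over the arrays. Nrarp, whose product restrains the receptor complex and is a widely used readout of Notch activity, read 3.29 to 3.67. Both were under the floor on every array, where a difference in transcript cannot be seen. No fold is given for them.

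None of the 10 genes was called for a difference between genotypes in its response, at 3 h or at 12 h by limma. Over all genes 0.0385% (7 genes) were called at 3 h and 0.022% (4 genes) at 12 h. At an unadjusted p under 0.05 in the same limma fit, Hes5 passed at 3 h and Hes1 at 12 h.

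**Figure D3:**
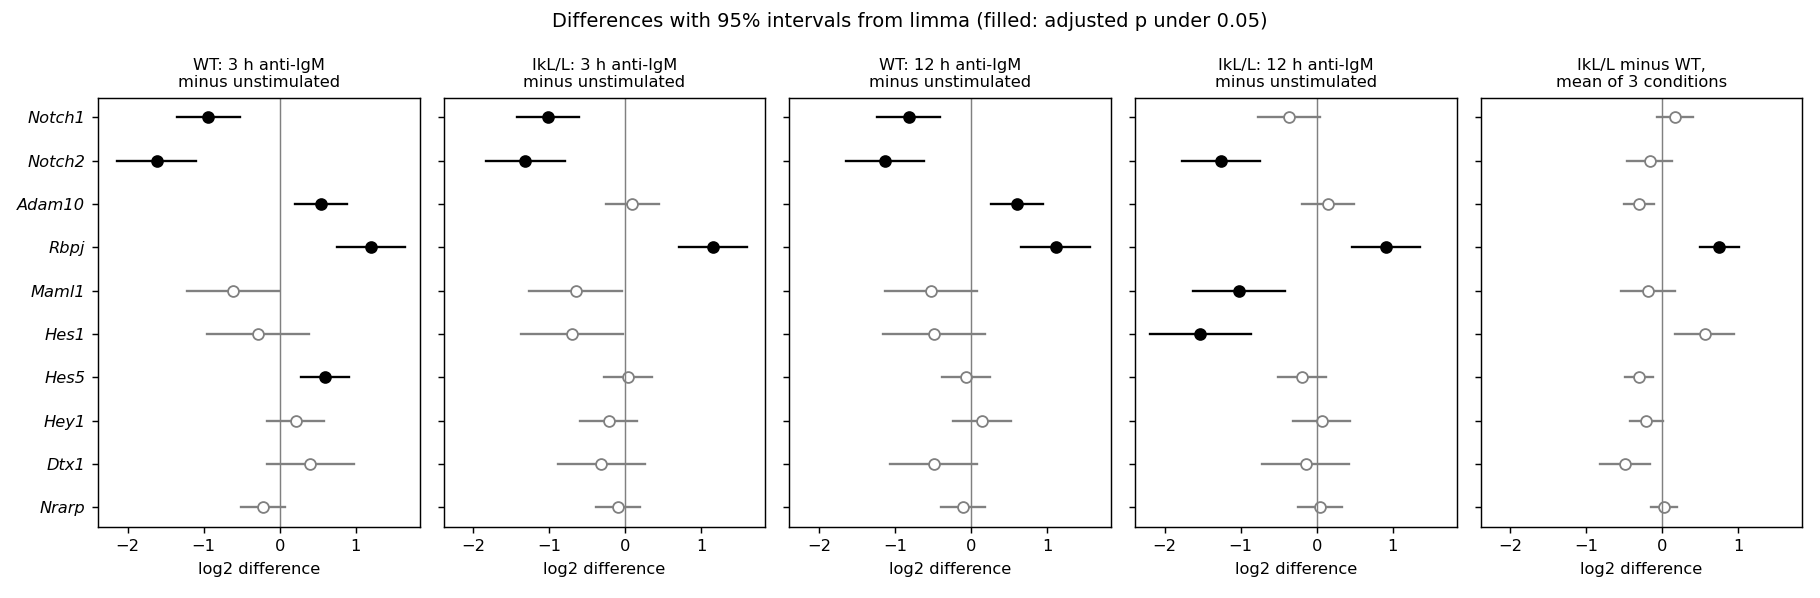
Log2 differences of the 10 genes with 95% intervals from limma, by comparison; filled points have an adjusted p under 0.05. Notch1 and Notch2 lie left of 0 and Rbpj right of 0 in the 3 h responses of both genotypes.

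The other genes of the pathway were read from a list, of which 47 were analysed here and 30 had a mean over the floor. The ligand genes Dll1, Dll3, Dll4, Jag1 and Jag2 and the receptor genes Notch3 and Notch4 were over the floor on 0 of the 12 arrays. At 3 h, 11 of 47 were called in WT (3 higher, 8 lower, 23.4%) and 9 in IkL/L cells (3 higher, 6 lower, 19.15%). Over all genes 19.4% in WT and 20.4% in IkL/L cells were called at 3 h. Of the genes over the floor these shares were 41.0% and 42.3%. At 12 h, 10 were called in each genotype, all lower (21.3%). Over all genes 8.66% in WT and 7.87% in IkL/L cells were lower at 12 h, and 10.1% and 9.72% higher. Of the genes over the floor, 39.6% and 36.5% were called at 12 h in either direction. The median difference of the 47 was -0.06 in WT and -0.04 in IkL/L cells at 3 h, and -0.04 and -0.06 at 12 h. From 3 h to 12 h, 5 were called in WT (2 higher, 3 lower) and 10 in IkL/L cells (3 higher, 7 lower), beside 10.8% and 15.5% of all genes.

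Among the genes for receptor glycosylation, 1 of 5 was called in WT at 3 h, beside 19.4% of all genes. This was Poglut1, which adds O-glucose to the receptor (0.69). At 12 h 1 of the 5 was called in WT, lower, beside 18.8% of all genes, and 0 were called in IkL/L cells at either time. From 3 h to 12 h 1 was called in WT, lower, and 2 in IkL/L cells, 1 higher and 1 lower, beside 10.8% and 15.5%. Among those for receptor processing and cleavage, 1 of 7 fell in WT at 3 h and 3 of 7 at 12 h, and 2 of 7 in IkL/L cells at 12 h, where 10.2%, 8.66% and 7.87% of all genes fell. Of the 7 genes 6 had a mean over the floor, where 1611, 1374 and 1258 of 7805 genes fell. Psen2, a catalytic subunit of gamma-secretase, fell at 12 h by 0.78 in WT and 0.84 in IkL/L cells. Ncstn, another subunit, fell 1.65-fold in WT at 3 h, to just over the floor, and at least 1.655-fold at 12 h. Adam17, a protease related to Adam10, fell by 0.54 and 0.58 at 12 h in WT and IkL/L cells.

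Of the genes for trafficking and turnover, 3 of 10 fell in WT and 2 in IkL/L cells at 3 h, beside 10.2% and 10.6% of all genes. Of the 10 genes 9 had a mean over the floor, where 1611 and 1640 of 7805 genes fell. Dtx4, a relative of Dtx1, read 6.199 and 6.49 in unstimulated WT cells, 5.17 and 5.28 at 3 h, and 6.75 and 6.88 at 12 h. It read 6.36 and 7.12, 5.49 and 5.42, and 7.06 and 7.20 in IkL/L cells. It dipped at 3 h and stood 3.01-fold (WT, limma adjusted p = 0.00134) and 3.20-fold (IkL/L, adjusted p = 0.000623) higher at 12 h than at 3 h. The WT difference was 0.91 with the mean of the probe sets, still called, and the call was lost without all WT arrays of replicate 1 (0.0623) or 2 (0.0691). Itch, a ubiquitin ligase that acts on Notch, fell in all 4 responses, by 0.63 at 3 h and 0.43 at 12 h in WT, and by 0.55 and 0.40 with IkL/L alleles.

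Of the nuclear cofactors, 3 of 10 fell in WT at each time. Of the same 10, 3 fell in IkL/L cells at each time, and Tle3 rose at 3 h. Over all genes 10.2% (3 h) and 8.66% (12 h) fell in WT, and 10.6% and 7.87% in IkL/L cells. Of the 10 cofactors 8 had a mean over the floor. Among the 7805 genes over it, 1611 and 1374 fell in WT, and 1640 and 1258 in IkL/L cells. Kat2b, an acetyltransferase (PCAF), read 7.60 and 7.54 in unstimulated WT cells, 5.40 and 5.40 at 3 h, and 6.53 and 6.13 at 12 h. IkL/L cells gave 7.15 and 7.27, 4.47 and 4.93, and 6.38 and 5.87. It fell 4.49-fold in WT (limma adjusted p = 6.7e-05) and 5.69-fold in IkL/L cells (adjusted p = 2.59e-05) at 3 h and stood 1.91-fold and 2.68-fold above the 3 h level at 12 h. With the mean of its probe sets the 3 h falls were smaller, by 1.05 in WT and 1.02 in IkL/L cells on the log2 scale, and still called. Like that of Maml1, the Kat2b probe set has a suffix that marks probes shared among transcripts. Ep300, the acetyltransferase p300 that MAML1 recruits, fell 2.32-fold in WT and 1.95-fold in IkL/L cells at 3 h. Kdm5a, a histone demethylase that works with RBPJ in repression, fell by 0.95 in WT at 12 h (adjusted p = 0.0118), a call lost without WT unstimulated replicate 2 (0.096), WT 12 h replicate 2 (-0.60; 0.0772) or all WT arrays of replicate 2 (-0.47; 0.320). The difference was -1.42 without the WT arrays of replicate 1 and -0.51 with the mean of the probe sets, both called.

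Of the 8 genes listed as targets, 3 were called at 3 h in each genotype, against 19.4% and 20.4% of all genes, and 3 of the 8 had a mean over the floor. Whether the listed genes, Hes6 among them, follow Notch signalling in these cells was not tested. Il2ra, the alpha chain of the interleukin-2 receptor, read 4.25 and 4.75 in unstimulated WT cells, 7.09 and 7.12 at 3 h, and 5.03 and 5.32 at 12 h. It rose 6.08-fold in WT (limma adjusted p = 0.000101) and at least 5.11-fold in IkL/L cells at 3 h. Cr2, which encodes the complement receptor CD21, read 7.19 and 6.89 in unstimulated WT cells, 8.49 and 8.06 at 3 h, and 6.35 and 6.002 at 12 h. It rose 2.36-fold in WT and 1.84-fold in IkL/L cells at 3 h and was below unstimulated at 12 h. From 3 h to 12 h it fell 4.29-fold and 4.22-fold (adjusted p = 0.000714 and 0.000444). Hes6, a HES family member that can oppose HES1, fell 2.62-fold in WT and 3.12-fold in IkL/L cells at 3 h. With the mean of its probe sets these falls were 0.91 and 1.06 on the log2 scale and still called. Hes6 is read here and below on a probe set whose suffix marks probes that may bind other transcripts.

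Between the genotypes, 3 of the 47 genes were called on average, against the 6.08% of all genes and 11.5% of those over the floor. Mib1, a ubiquitin ligase that acts on the ligands, was higher in IkL/L cells (0.73, limma adjusted p = 0.0386). The corepressor gene Tle3 (-0.53, adjusted p = 0.0161) and Hes6 (-0.65, adjusted p = 0.0105) were lower. As for Rbpj, these averages take the arrays of a genotype as independent. Tle3 was also lower at 12 h alone (-1.05, adjusted p = 0.037). The Mib1 call held in 8 of 21 other fits, the Tle3 call at 12 h in 5 of 21 and those of Tle3 and Hes6 on average in 15 and 18 of 21. The range over these fits was 0.28 to 0.91 for Mib1, and the Hes6 difference was -0.36 with the mean of its probe sets, still called. For a difference between genotypes in the response, 0 of the 47 were called by limma; 1 passed at 3 h and 1 at 12 h at an unadjusted p under 0.05.

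**Figure D4:**
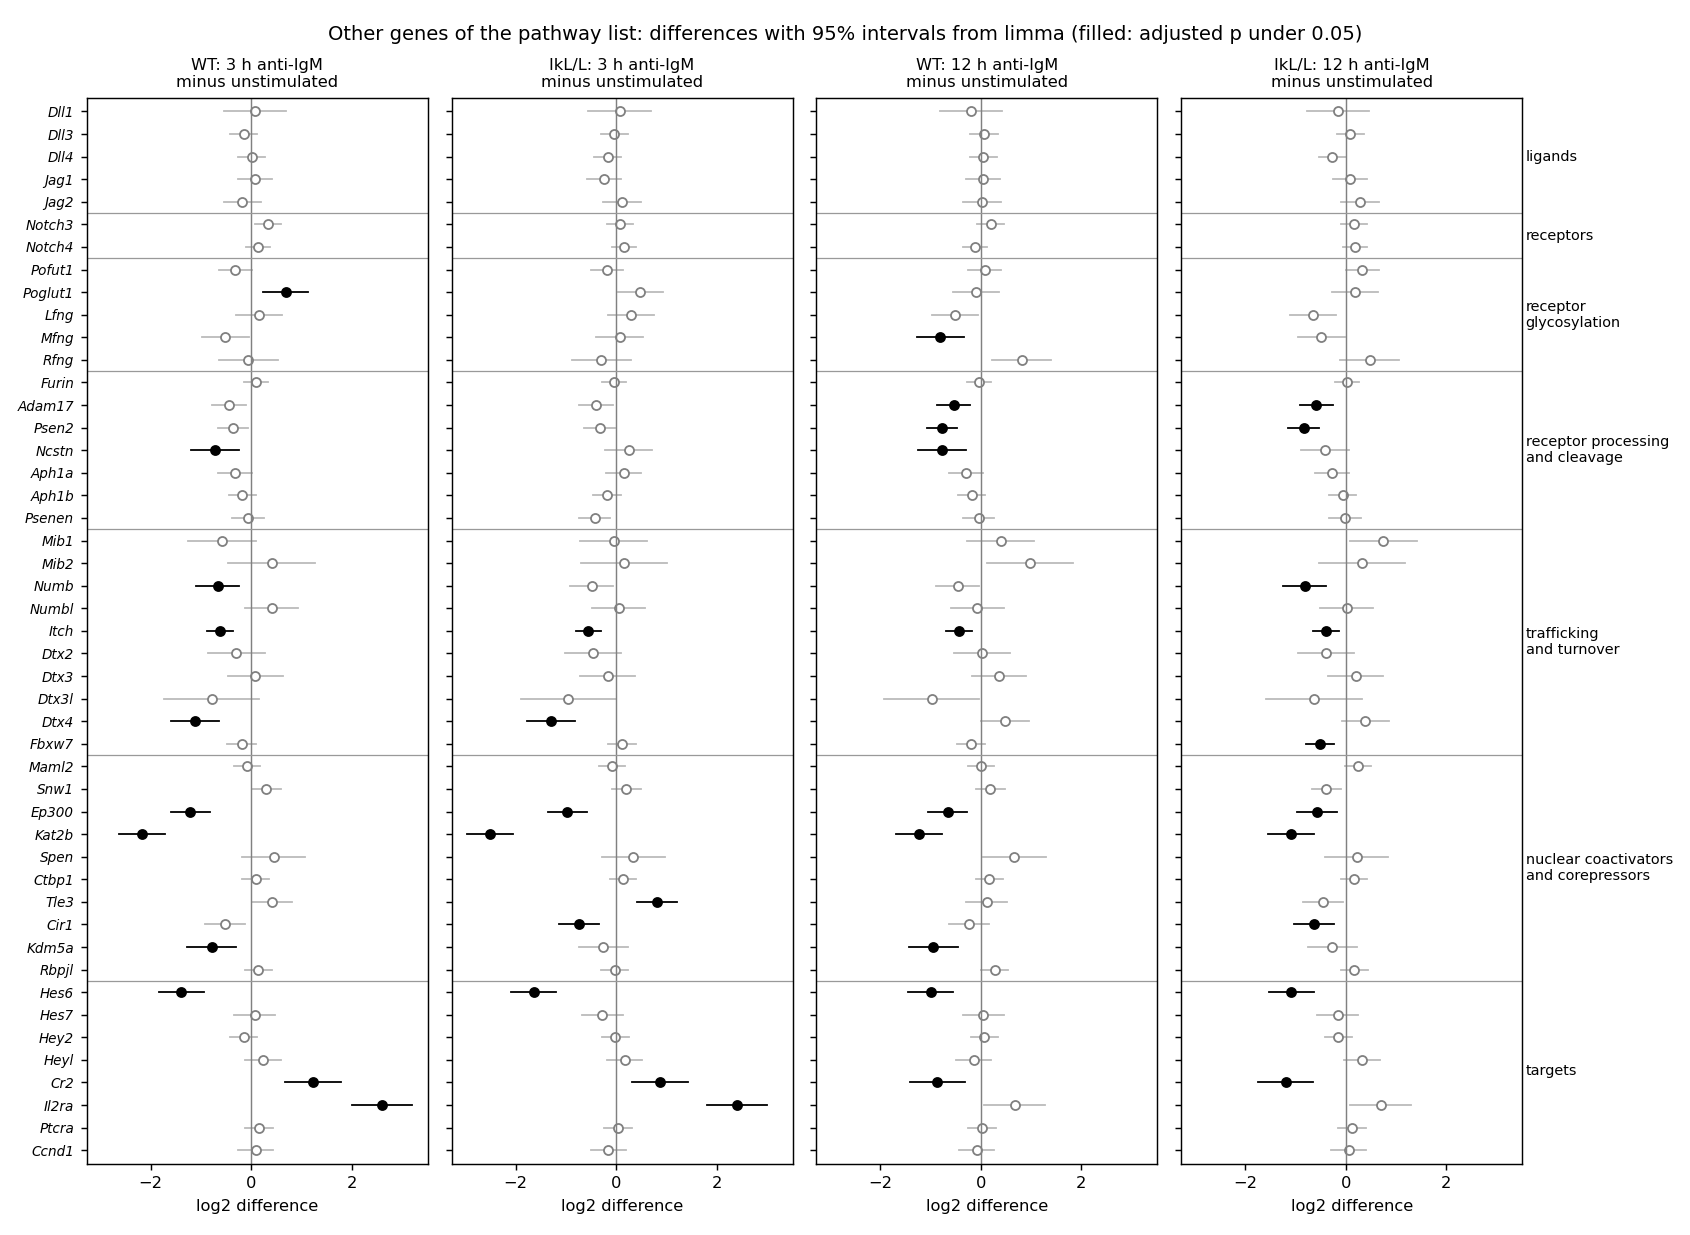
Log2 differences from unstimulated of the other 47 pathway genes, in rows ordered by role, with 95% intervals from limma; filled points have an adjusted p under 0.05. At 3 h Il2ra and Cr2 lie right of 0 and Kat2b, Hes6, Ep300 and Dtx4 left of it in both genotypes, and at 12 h every filled point is left of 0.

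The transcripts whose profile over the 12 arrays was most like each called gene were taken from the 7805 genes over the floor, by Pearson's r. The arrays share their groups and their source samples, so r describes the likeness and has no test. For Notch2 they were Cdkn1b (0.98), Dhx40 (0.96) and 2010315B03Rik (0.96), and for Notch1 Zfand1 (0.96), Eps15 (0.95) and Bin1 (0.95). Cdkn1b, the gene of the cell cycle inhibitor p27, read 6.69 and 6.46 in unstimulated WT cells and 4.29 and 4.38 at 3 h. For Rbpj they were Smyd2 (0.98), Ptges2 (0.97) and Tamm41 (0.97). Smyd2, a lysine methyltransferase gene, read 3.37 and 3.95 in unstimulated WT cells, under the floor, and 7.30 and 7.66 in IkL/L cells at 3 h. For Maml1 they were Tnip1 (0.97), Zfp429 (0.95) and Ppm1d (0.95). The likest genes were less close for Hes1 (Ice1, 0.93), Hes5 (Colgalt1, 0.90) and Adam10 (Nxn, 0.85).

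The sorted cells carried B cell transcripts on all 12 arrays, with 5 of 6 listed B cell markers measured and over the floor. Replicate arrays of a group correlated at 0.988 to 0.992 over all probe sets. The summed linear signal of the B cell markers moved with the stimulus, from 12130 to 12770 in unstimulated WT cells to 3520 to 4355 at 3 h, and from 8343 to 9784 to 1729 to 2227 in IkL/L cells. On average Cd79a (-0.71) and Cd79b (-0.90) were lower in IkL/L cells, and the other B cell markers were not called. The 4 measured of 6 follicular B markers summed to 3229 to 3444 in unstimulated WT cells, 2530 to 2714 at 3 h and 886.1 to 1073 at 12 h, and in IkL/L cells to 3296 to 3494, 2343 to 3034, and 825.7 to 887.7. Of these 4 genes 2 fell at 3 h and all 4 at 12 h in each genotype. S1pr1 was lower in IkL/L cells on average (-0.88), but differed by 0.14 at 12 h, which did not pass the test. Fcer2a was lower in IkL/L cells at 12 h (-1.21, limma adjusted p = 0.0439). The 6 marginal zone markers summed to 345.0 to 370.6 in unstimulated WT cells, 823.1 to 881.2 at 3 h, and 315.4 to 332.0 at 12 h, and in IkL/L cells to 492.6 to 596.9, 1094 to 1129, and 605.8 to 767.9. These 6 genes moved in different directions: at 3 h Cr2, S1pr3 and Myof rose and Cd1d1 fell in both genotypes. In WT cells S1pr3 read 3.39 and 3.43 without stimulus, under the floor, and 8.28 and 8.53 at 3 h. Cd1d1 read 6.95 and 6.96, then 4.29 and 4.41. Of these 6 genes only Cd9 was called between the genotypes on average, 2.40 higher in IkL/L cells. The others differed by -0.32 (Cr2) to 0.78 (Myof). Cr2 is a listed target above, and Asb2 was over the floor on 0 arrays. The 4 dendritic markers summed to 574.5 to 615.5 in unstimulated WT cells and 186.5 to 215.8 at 3 h, and to 701.3 to 712.0 and 238.4 to 321.8 in IkL/L cells, with Itgax and Siglech under the floor throughout. Cst3 fell at 3 h in both genotypes, while Flt3 rose in IkL/L cells and was higher in them on average (0.88). The 5 plasma cell markers summed to 1547 to 1621 in unstimulated WT cells and 4564 to 4583 at 3 h, and to 1552 to 2596 and 4539 to 5225 in IkL/L cells. The list did not move as one: at 3 h Irf4 rose in both genotypes and Prdm1 in WT cells, Sdc1 fell in WT cells, and Xbp1 and Jchain did not pass the test. On average Xbp1 was higher in IkL/L cells (0.52). Sdc1 (-1.95) and Prdm1 (-0.70), over the floor on 3 and 2 arrays, were lower in them. The part of these shifts in the results above was not tested. All 6 measured T cell markers, and those of NK cells and stroma, were under the floor on all arrays. So was the erythroid marker Hba-a1. Alas2, also erythroid, was over it on 4 arrays, all of replicate 1, and was higher in replicate 1 in all 6 groups. Its part in the results was not tested either.

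Without stimulus Ikzf1 read 9.85 and 9.83 on the WT and 10.00 and 9.94 on the IkL/L arrays. The transcript had fallen after 3 h with anti-IgM in WT (-0.83, limma adjusted p = 0.0218) and with IkL/L alleles (-1.64, adjusted p = 0.000413). Stimulated IkL/L arrays lay below the WT arrays of the same time, with differences of -0.68 (3 h) and -0.88 (12 h). Neither of these passed the test (adjusted p = 0.193 and 0.148), nor did the average over the conditions (-0.48, adjusted p = 0.0533). Where the Ikzf1 probes lie with respect to the IkL/L alleles is not stated in the labels, so these levels do not check the genotype.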

How the data were processed

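The authors deposited 1 table of log2 expression values for 12 Affymetrix arrays of mouse B cell RNA (100 ng of total RNA, labelled in 2 cycles); RMA is named per the submitters' processing notes, with no version. Of 45037 probe sets, 34945 had 1 gene symbol in the platform annotation, 932 several and 9160 none listed; only the first were used, giving 18193 genes, 9010 of them with several probe sets. Array medians lay at 3.12 to 3.21. The table was taken as deposited. limma 3.58.1 (R 4.3.3, lmFit and eBayes) fitted 1 mean per group over all 12 arrays, with 6 residual and 3.95 prior degrees of freedom, and p-values were adjusted by Benjamini-Hochberg over all genes. The number of arrays limits the precision. The fit was tested on simulated data.

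The genes and lists were chosen with earlier results of these data known. All 10 genes are named, with Ikzf1, the up to 3 largest called changes of the pathway list in each comparison, and the 3 genes most like each called gene. Other list members named were chosen after their values were seen.

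Over the brightest genes, deviations from the group mean of same-numbered arrays correlated at 0.546 to 0.619 within WT, 0.354 to 0.490 within IkL/L and 0.026 to 0.310 across genotypes. Across genotypes 8 of 9 pairs of groups correlated over 0.1. The numbers thus pair arrays within a genotype by the data; the labels do not state it. Alternatives were replicate blocks, the mean of probe sets, a filter on dim genes, other scalings, other probe sets (chosen after seeing the data) and leaving out arrays.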

Additional observations from a re-analysis of the deposited data

Results flagged for a closer look

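A second Rbpj probe set, which did not stand for the gene in the counts of calls because its mean signal is lower, carried a genotype difference past the threshold in single conditions. IkL/L cells were higher than WT cells on it by 1.02 without stimulus (6.91 and 7.02 against 6.00 and 5.88; limma adjusted p over all probe sets = 0.0219). At 12 h they were higher by 1.21 (8.50 and 8.86 against 7.34 and 7.60; adjusted p = 0.0171). The probe set of the report gave 0.83 and 0.63 in these conditions, short of the threshold. With 2 arrays in each group, single arrays were not tested for standing apart.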

How the results depend on the processing

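With a replicate block within each genotype, the count of the 10 genes called became 2 from 3 h to 12 h in WT (Dtx1 added) and 2 in IkL/L (Hes1 added, adjusted p = 0.0282), and it added the 3 Maml1 calls given above and changed no other call of the 10 genes. That block was not applied between genotypes, where it would remove the spread between sources. Across genotypes same-numbered arrays were less alike than within them, and the labels do not say that they pair. A block shared by the genotypes gave 2 from 3 h to 12 h in WT. For IkL/L against WT it gave 1 unstimulated (Rbpj), 3 at 3 h (Rbpj, Hes5 and Dtx1) and 4 on average (these 3 and Adam10). With the mean of all probe sets the counts were 3 at 3 h, 2 at 12 h and 0 from 3 h to 12 h in WT, 3 at 12 h and 0 from 3 h to 12 h in IkL/L, and 1 unstimulated and 1 at 3 h between genotypes (Rbpj). Median centring gave 2 from 3 h to 12 h in WT and 0 in IkL/L, and leaving out the dimmest 1 in 3 of the genes gave 2 in WT. Leaving out arrays, the counts ran from 2 to 5 (WT 3 h), 0 to 4 (WT 12 h), 0 to 2 (WT 12 h against 3 h), 1 to 5 (IkL/L 3 h), 2 to 4 (IkL/L 12 h), 0 to 1 (IkL/L 12 h against 3 h), 0 to 1 between genotypes unstimulated and at 3 h, 0 at 12 h, 0 to 2 on average, and 0 for both differences in response. On other probe sets the sign turned for Adam10 between genotypes on average (0.15), Dtx1 from 3 h to 12 h in WT (0.12) and Maml1 in WT at 3 h (0.0185); the cause was not tested. Housekeeping scaling moved the median of all genes at 12 h in IkL/L cells by -0.26 and the share of higher calls there from 55.3% to 23.2%.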
